A study of Mus musculus with 8 samples.

Results

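STAT3, STAT5A, STAT5B and STAT6 carry signals from cytokine receptors to the nucleus, and the genes Cish, Socs1, Socs2, Socs3, Pim1 and Pim2 are among those they induce. The messenger RNA of these 10 genes was examined in CD8+ T cells of the naive type from mouse. Cells were kept for 24 h either in 2 µM RGX-104, a small molecule that activates the liver X receptors (LXR), or in DMSO, its solvent. The genes were taken by symbol from a table of 41730 gene rows, and all 10 had a row, passed the filter on low counts and could be tested. The filter kept 10037 genes in all. The cells had been enriched by magnetic depletion of other cells, and transcripts were sequenced from their 3' ends. The groups held 4 RGX-104 libraries (replicates 5 to 8) and 4 DMSO libraries (replicates 1 to 4). The sources used here give no strain, sex or age, and they do not state the origin of each library (animal or culture). A p-value here is therefore set against the variation among these 8 libraries alone, part or all of which may be technical.

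Cytokine receptors that use the common gamma chain or gp130 are bound inside the cell by JAK kinases. The kinases phosphorylate STAT proteins, which then pair, enter the nucleus and bind DNA. CIS and the SOCS proteins are made in response and dampen the same receptors, while the PIM kinases support survival and growth. In naive CD8+ T cells interleukin 7 and interleukin 15, which act largely through STAT5, keep the cells alive, interleukin 6 and interleukin 27 signal through gp130 to STAT3, and interleukin 4 signals through STAT6.

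Dimers of STAT3 and STAT5 bind the palindrome TTCNNNGAA, where N is any base, whereas STAT6 prefers the same arms with a wider spacing. The palindrome was searched on both strands in RefSeq promoter windows of GRCm38.p6 that run from 250 bases before to 50 bases after a start site. Windows were matched for 9 of the 10 genes, all but Socs2, and there were 12 of them. The palindrome was found in the windows of 2 genes, Cish and Socs3, and in 8.3% of all 32851 promoter windows. Cish held 2 copies, as did 0.457% of all windows (2 or more). Both stretches are shown because CIS and SOCS3 are the textbook feedback products of STAT5 and STAT3, and capitals mark the palindrome.
Cish: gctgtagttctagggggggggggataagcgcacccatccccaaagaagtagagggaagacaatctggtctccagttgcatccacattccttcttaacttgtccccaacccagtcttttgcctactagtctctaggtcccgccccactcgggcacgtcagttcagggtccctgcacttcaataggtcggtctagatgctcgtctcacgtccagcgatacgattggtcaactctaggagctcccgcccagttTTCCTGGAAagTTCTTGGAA
Socs3: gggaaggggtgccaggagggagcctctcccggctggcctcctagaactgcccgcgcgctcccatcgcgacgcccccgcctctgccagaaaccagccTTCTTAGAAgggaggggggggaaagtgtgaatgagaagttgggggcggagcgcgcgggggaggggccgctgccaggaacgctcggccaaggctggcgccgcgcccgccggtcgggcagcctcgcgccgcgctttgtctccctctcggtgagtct
The Cish stretch is chr9:107296409-107296678 on the plus strand. Its copies TTCCTGGAA and TTCTTGGAA begin at bases 1 and 12 of the annotated transcript. The Socs3 stretch is chr11:117969367-117969616 on the minus strand, and its copy TTCTTAGAA begins 154 bases before the start site of this window. That start site lies inside the Socs3 gene, which RefSeq extends upstream to 117970336 and GENCODE M21 to 117970047. Likewise GENCODE M21 starts the Cish gene at 107296026, upstream of the RefSeq start used here. The wider spacing, with 1 more base between the arms, was found in 0 of the 12 windows and in 6.95% of all windows. The LXR element known as DR4, in its strict consensus, was found in 0 of the 12 windows and in 0.0152% of all windows. A match describes these letters only, and no match says nothing of sites outside the window.

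The libraries held 16196217 to 28287445 counts in RGX-104 and 16308726 to 24353797 in DMSO. Genes with at least 1 count numbered 10442, 10748, 10803 and 10990 in RGX-104 replicates 5 to 8 and 10047, 9772, 10194 and 10908 in DMSO replicates 1 to 4. DMSO replicates 1, 2 and 3 had the fewest. Of 14 CD8 T cell identity genes 12 had a count, with a summed level of 4480 to 5180 CPM, that is counts scaled to the library total, in RGX-104 and 4530 to 4800 CPM in DMSO, and Cd2 and Cd28 were at 0. All 9 listed B cell markers had a count and summed to 123 to 193 CPM in RGX-104 and 44.6 to 226 CPM in DMSO. Macrophage markers, 9 of 10 with a count and Fcgr1 at 0, summed to 126 to 175 and 112 to 241 CPM. Lists for dendritic, natural killer, neutrophil, erythroid and CD4 or regulatory T cells summed to at most 57.6 CPM in RGX-104 and 56.6 CPM in DMSO in any library. In that order 4 of 8, 4 of 7, 3 of 8, 4 of 7 and 5 of 5 of their markers had a count, with Itgax, Xcr1, Ncr1, Ly6g and Alas2 among those at 0. Since Cd2 and Cd28 of the T cell list were at 0 too, a marker at 0 does not show that a cell type was absent. In such bulk samples fewer cells of a type and less RNA per cell cannot be told apart. The agonist's known targets responded, with log2 fold changes from 1.66 (Mylip) to 5.68 (Abca1) for 5 genes and edgeR adjusted p from 7.29e-10 (Scd2) to 8.64e-05 (Abca1).

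None of the 10 genes differed between RGX-104 and DMSO by the test across all genes (edgeR quasi-likelihood test, 0 of 10 at an adjusted p under 0.05). Over all tested genes the test called 0.11%, of which 0.0996% higher and 0.00996% lower in RGX-104. All 10 had an adjusted p of 1.00. None had an unadjusted p under 0.05, which 3.81% of tested genes had, and in all 10 the RGX-104 and DMSO libraries overlapped, whereas the groups did not overlap for 3.58% of tested genes (2.08% higher and 1.49% lower). DESeq2 and limma-voom called 0.419% and 0.139% of the genes they tested and also 0 of the 10, with 1 and 2 of them at an unadjusted p under 0.05, Stat3 by both tools and Socs1 by limma-voom. Of the 10 log2 fold changes 6 lay above 0 and 4 below, with a median of 0.079, and 50.9% of all tested genes lay above 0, with a median of 0.0090. A missed threshold does not show that a level was the same, so the 95% interval of each change is given below.

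**Figure D1:**
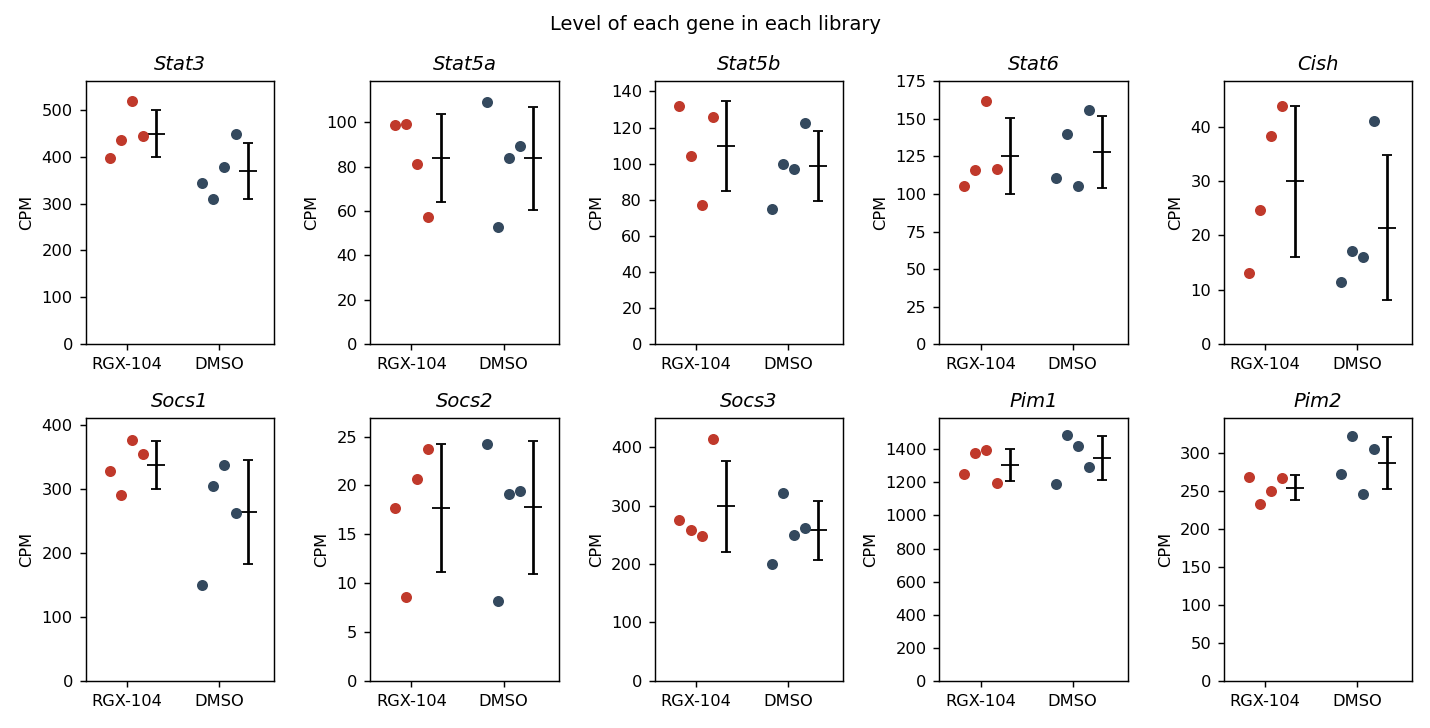
CPM of the 10 genes in each library, 1 panel per gene with its own axis from 0, with RGX-104 replicates 5 to 8 (red) left of DMSO replicates 1 to 4 (dark blue), and the mean and SD of each group beside the points. The groups overlap in every panel, and Cish runs from 13.1 to 43.9 CPM in RGX-104 and from 11.4 to 41.1 CPM in DMSO.

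Stat3, the main factor downstream of gp130, was the most abundant of the 4 STAT transcripts. It was measured at 398, 436, 519 and 444 CPM in RGX-104 and at 343, 310, 378 and 447 CPM in DMSO. Of the RGX-104 libraries, replicate 7 lay above every DMSO library, and the others lay between DMSO replicates 3 and 4. The means were 449 ± 50.7 CPM in RGX-104 and 370 ± 58.8 CPM in DMSO (SD, n = 4 each), a log2 fold change of 0.28 ± 0.14 (SE, 95% interval -0.014 to 0.58, edgeR adjusted p = 1.00). DMSO replicate 4 was the highest DMSO library for Stat3. A lower change against it alone and a higher change without it were therefore all but fixed in advance. Against DMSO replicate 4 alone, a fit whose spread comes from the RGX-104 libraries only, the log2 fold change was 0.015, and it was 0.062 once genes detected per library entered as a covariate. Without DMSO replicate 4 it was 0.38 (unadjusted p = 0.0153 in the edgeR fit across all genes, adjusted p = 0.812).

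Stat5a and Stat5b encode closely related proteins that answer interleukin 2, interleukin 7 and interleukin 15. Stat5a stood at 98.8, 99.2, 81.2 and 57.2 CPM in RGX-104 and at 109, 53.0, 84.1 and 89.2 CPM in DMSO. The lowest library was a DMSO library and so was the highest. Its means were 84.1 ± 19.8 CPM in RGX-104 and 83.8 ± 23.2 CPM in DMSO, with a log2 fold change of 0.0046 ± 0.27 (95% interval -0.55 to 0.56). Stat5b stood at 132, 104, 76.8 and 126 CPM in RGX-104 and at 75.0, 99.9, 97.1 and 122 CPM in DMSO. RGX-104 replicates 5 and 8 lay above all DMSO libraries, and replicate 7 lay below 3 of them. The means of Stat5b were 110 ± 24.8 and 98.6 ± 19.4 CPM, with a log2 fold change of 0.15 ± 0.23 (95% interval -0.33 to 0.64). It was -0.15 against DMSO replicate 4 alone, the highest DMSO library for Stat5b.

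Stat6, the factor of interleukin 4 signalling, was at 105, 116, 162 and 117 CPM in RGX-104 and at 111, 140, 105 and 156 CPM in DMSO. Each group had libraries near 105 CPM and near 160 CPM. The log2 fold change was -0.033 ± 0.21 (95% interval -0.47 to 0.40), from means of 125 ± 25.3 CPM in RGX-104 and 128 ± 24.1 CPM in DMSO.

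Annotation bears on how these STAT counts can be read. On GRCm38.p6 RefSeq places Stat5b at chromosome 11, 100780731 to 100859004, Stat5a at 100859351 to 100885169 and Stat3 at 100886806 to 100939594, a row of neighbours. Stat5a is on the plus strand and the other two on the minus strand, so Stat5a and Stat3 meet at their 3' ends, where the reads of this assay fall. RefSeq leaves 1636 bases between them, but GENCODE M21 has them share 72 bases. Stat6 (chromosome 10, 127642955 to 127660987, plus strand) likewise shares its last 70 bases in RefSeq with Nab2, which reached 114 CPM at most. The strand setting of the counting is not given in the sources used here, so reads from such shared bases cannot be told apart. Reads common to Stat5a and Stat5b may also have been split or dropped.

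Cish, which encodes CIS, an inhibitor that is induced by STAT5 and binds activated receptor chains, was among the 2 lowest of the 10. It stood at 13.1, 24.7, 38.4 and 43.9 CPM in RGX-104 and at 11.4, 17.1, 16.1 and 41.1 CPM in DMSO. DMSO replicate 4 lay within the range of the higher RGX-104 libraries, while RGX-104 replicate 5 lay among DMSO replicates 1 to 3. The means were 30.0 ± 13.9 CPM in RGX-104 and 21.4 ± 13.3 CPM in DMSO, with a log2 fold change of 0.48 ± 0.54 (95% interval -0.65 to 1.62). Its sign changed to -0.45 against DMSO replicate 4 alone, but that was the highest DMSO library for Cish, so a lower value was all but fixed in advance. The log2 fold change was -0.32 once genes detected per library entered as a covariate. Without DMSO replicate 4 the log2 fold change was 1.00, a rise likewise all but fixed in advance, and also not called.

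Socs1, which blocks JAK kinases directly, stood at 328, 291, 377 and 355 CPM in RGX-104 and at 150, 305, 338 and 263 CPM in DMSO. DMSO replicate 1 was the lowest by far, and RGX-104 replicates 7 and 8 lay above all DMSO libraries. The means of 338 ± 37.1 CPM in RGX-104 and 264 ± 81.6 CPM in DMSO gave a log2 fold change of 0.36 ± 0.20 (95% interval -0.056 to 0.77, edgeR adjusted p = 1.00). It was 0.16 without DMSO replicate 1, 0.49 without DMSO replicate 3 and 0.37 against DMSO replicate 4 alone. Replicates 1 and 3 were the lowest and the highest DMSO library for Socs1. A lower value without replicate 1 and a higher value without replicate 3 were therefore all but fixed in advance. In the edgeR fits the unadjusted p was 0.0248 without DMSO replicate 3 (adjusted p = 0.995) and 0.0298 without the filter on low counts (adjusted p = 0.43).

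Socs3, the inhibitor that binds gp130 and is induced by STAT3, was at 276, 258, 248 and 414 CPM in RGX-104 and at 199, 321, 249.0 and 261 CPM in DMSO. RGX-104 replicate 8 stood alone above the rest, and the other RGX-104 libraries fell within the DMSO range. The log2 fold change was 0.21 ± 0.18 (95% interval -0.17 to 0.60). The fits that left out a library gave 0.013 (without RGX-104 replicate 8) to 0.33 (without DMSO replicate 2). Means were 299 ± 77.7 CPM in RGX-104 and 258 ± 49.9 CPM in DMSO.

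Socs2, a feedback inhibitor best known from growth hormone signalling, was the lowest of the 10 genes. It was at 17.7, 8.60, 20.7 and 23.7 CPM in RGX-104 and at 24.3, 8.14, 19.1 and 19.5 CPM in DMSO. Each group had a single library near 8 CPM and the rest between 17.7 and 24.3 CPM. The log2 fold change of -0.0073 ± 0.64 had a 95% interval from -1.34 to 1.33, the widest among the 10, which in folds runs from 0.394 to 2.51.

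Pim1, a kinase gene induced by STAT5 and STAT3, was the most abundant of the 10 and the most evenly measured. It stood at 1253, 1378, 1396 and 1196 CPM in RGX-104 and at 1189, 1486, 1420 and 1296 CPM in DMSO. The RGX-104 libraries all fell inside the DMSO range. The log2 fold change was -0.046 ± 0.10 (95% interval -0.25 to 0.16), which in folds runs from 0.838 to 1.12. Pim2, its relative on the X chromosome (7878306 to 7883432), stood at 268, 233, 250 and 267 CPM in RGX-104 and at 272, 322, 246 and 305 CPM in DMSO. RGX-104 replicate 6 lay below every DMSO library and the others below 3 of the 4. Pim2 means were 254 ± 16.5 and 286 ± 33.9 CPM, with a log2 fold change of -0.17 ± 0.14 (95% interval -0.47 to 0.13). Pim1 (chromosome 17, 29490785 to 29496111) overlaps the long noncoding RNA Gm26885 at its 5' end, which reached 11.7 CPM at most.

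**Figure D2:**
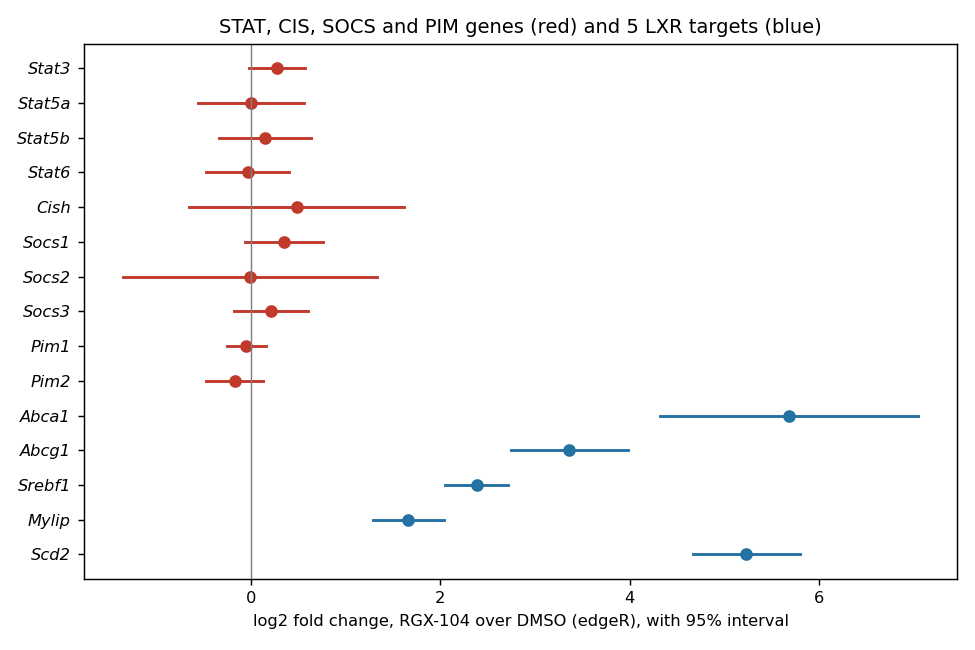
Log2 fold change of RGX-104 over DMSO (points) with its 95% interval (lines) from the edgeR fit, for the 10 genes (red) and 5 LXR targets (blue). Every red interval crosses 0, from the narrowest, Pim1 at -0.25 to 0.16, to that of Socs2 at -1.34 to 1.33, while the blue points lie between 1.66 and 5.68.

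The order of the levels was Pim1, Stat3, Socs1, Socs3, Pim2, Stat6, Stat5b, Stat5a, Cish and Socs2, from a mean of 1327 CPM to a mean of 17.7 CPM over the 8 libraries. Reads of this assay come from transcript ends, so these counts carry no length term, but priming can differ between genes. Pim1 exceeded Stat3 in 8 of 8 libraries, with ranges that did not overlap and a ratio of means of 3.24. Stat3 lay above Socs1 in 8 of 8 libraries. Socs1, Socs3 and Pim2 were not separated, since Socs1 exceeded Socs3 in 5 of 8 libraries and Socs3 exceeded Pim2 in 4 of 8. Pim2 lay above Stat6 in every library without overlap of the ranges. Stat6, Stat5b and Stat5a each exceeded the next in 6 of 8 libraries with overlapping ranges. Stat5a stood above Cish in 8 of 8 libraries, 3.26 times as high in the mean, and Cish exceeded Socs2 in 5 of 8.

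The depth behind these values was smaller than the totals show. From the share of genes with a mean of 2 to 20 CPM that had no count, and assuming independent sampling, a library behaved as if it held 249525 to 342244 molecules in RGX-104 and 182139 to 316703 in DMSO, so that 1 molecule was worth 2.92 to 5.49 CPM. On this estimate Socs2 rested on 1.48 to 8.12 molecules per library and Cish on 2.29 to 15.0. Pim1 rested on 238 to 437 and Stat3 on 56.4 to 162. The coefficient of variation within groups was 54.8% for Cish and 37.7% for Socs2, against a median of 59.4% for the 6487 tested genes below 50 CPM. At 50 to 200 CPM, Stat5a, Stat5b and Stat6 had 25.7%, 21.2% and 19.5%, against a median of 24.6%. Between 200 and 1000 CPM the median was 13.9%, with Socs1 at 23.2%, Socs3 at 22.9%, Stat3 at 13.8% and Pim2 at 9.54%. Pim1 had 8.69%, against 8.84% for the 102 genes at 1000 CPM or more.

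**Figure D3:**
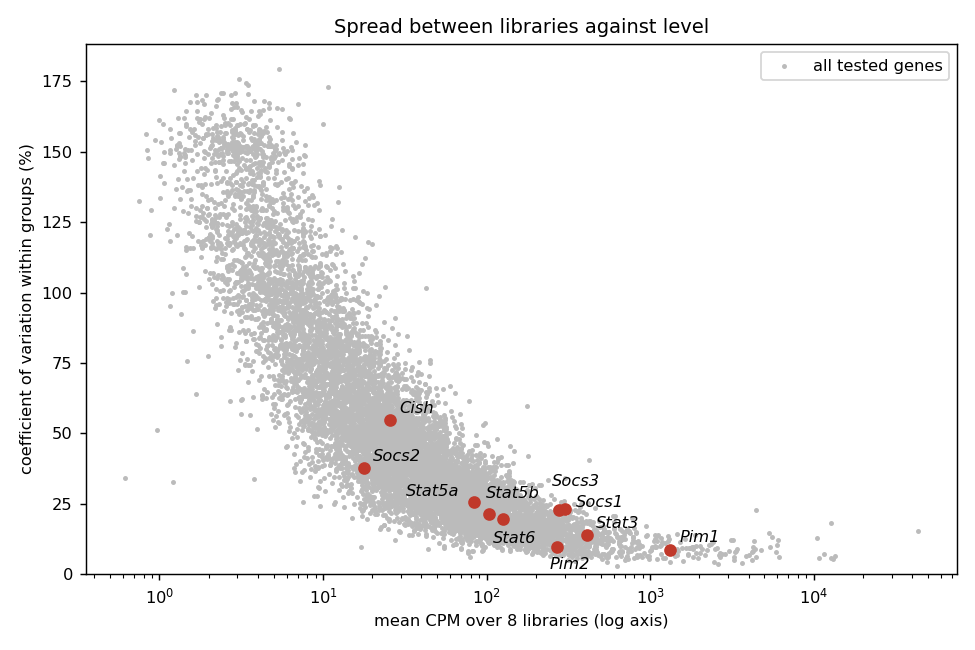
Coefficient of variation within groups, in percent, against the mean CPM over 8 libraries on a log axis, for all 10037 tested genes (grey) and the 10 genes (red). The spread tends to narrow as the level rises, with 8.69% for Pim1 and 54.8% for Cish, though Socs2, the lowest gene, has 37.7%. Socs1 and Socs3 lie at 23.2% and 22.9% where the median of genes at 200 to 1000 CPM is 13.9%.

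The level of Stat3 was correlated with the number of genes detected in a library. For Stat3, Pearson's r over the 8 libraries was 0.918 (exact permutation p = 0.00129, adjusted over the 10 genes p = 0.0129) and Spearman's rho was 0.905 (exact permutation p = 0.00456, adjusted p = 0.0456). Of all tested genes 0.149% had an r at least as high. Within groups, on deviations from the group means, r was 0.864 (exact permutation p = 0.0208). In DMSO the order of Stat3 was that of the genes detected, replicate 2 lowest, then 1, 3 and 4. Without DMSO replicates 1 and 2, the libraries farthest from the median, r was 0.746 and did not pass (exact permutation p = 0.0903). Leaving them out also narrows the range of genes detected and leaves fewer libraries, so how far the relation rests on them is not settled.

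For Cish r was 0.830 (exact permutation p = 0.0191, adjusted p = 0.0955) and rho was 0.833 (exact permutation p = 0.0154, adjusted p = 0.0770), which did not pass the adjustment, and 1.23% of tested genes had an r at least as high. Its r was 0.832 within groups (exact permutation p = 0.0208) and 0.902 without the same libraries (exact permutation p = 0.0153). In RGX-104 the order of Cish was that of the genes detected, replicates 5, 6, 7 and 8 from low to high. For the other 8 genes r lay between -0.353 (Pim2) and 0.382 (Socs1), with none at an exact permutation p under 0.05. This relation was examined once the values had been seen. Genes detected were counted after treatment and ran from 10442 to 10990 in RGX-104 and from 9772 to 10908 in DMSO. The fits with the covariate above therefore cannot separate the part of genes detected from that of the treatment.

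**Figure D4:**
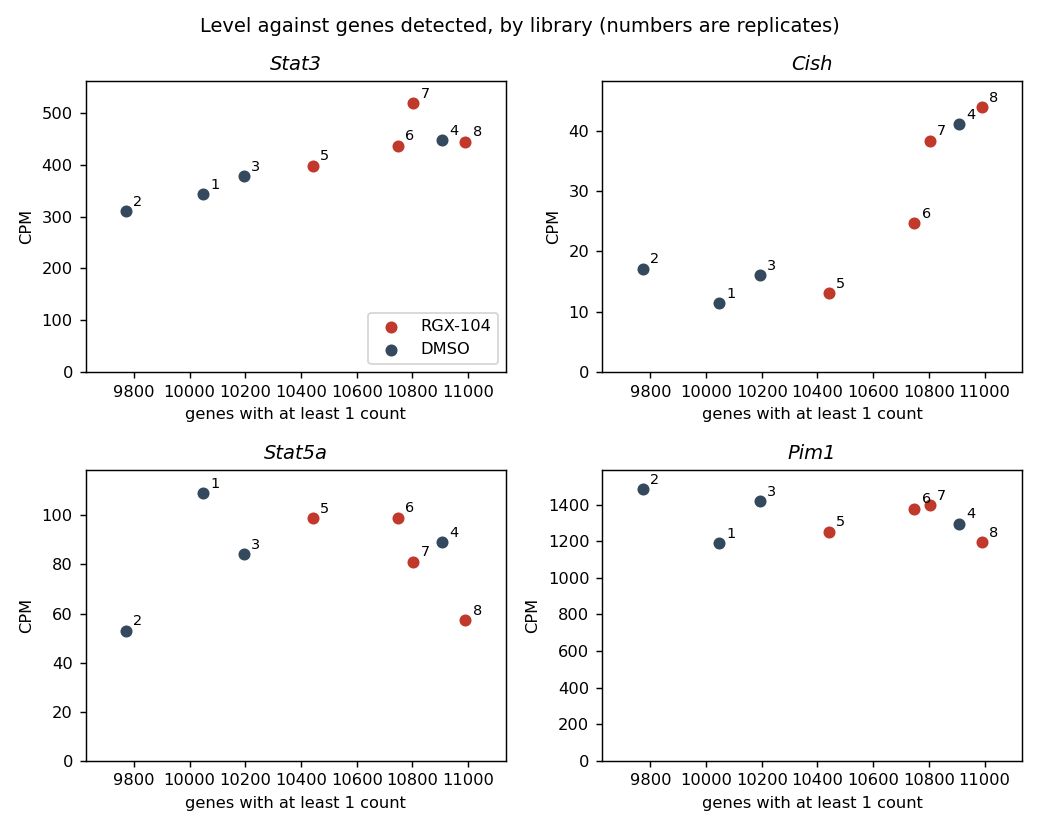
CPM of Stat3, Cish, Stat5a and Pim1 in each library against the number of genes with at least 1 count, with RGX-104 in red and DMSO in dark blue and the replicate number beside each point. Stat3 and Cish tend to be higher in libraries with more genes detected (r = 0.918 and 0.830), whereas r is 0.087 for Stat5a and -0.334 for Pim1.

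The rest of the pathway was described from lists of receptors, ligands, kinases, other regulators and other targets. Of 69 such genes 52 could be tested, and edgeR called 0 of them (lowest adjusted p 0.872). DESeq2 and limma-voom also called 0. At an unadjusted p under 0.05 there were 8 (15.4%), 6 higher and 2 lower, against 3.81% of all tested genes, and by DESeq2 and limma-voom there were 10 and 9. The groups did not overlap for 5 of the 52 genes, 3 higher and 2 lower, against 3.58% of all tested genes, 2.08% higher and 1.49% lower. The lists were drawn up with earlier results of these data known, so these shares describe the lists only.

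Upstream of the STAT factors, 13 of 16 receptor chains were tested. The common gamma chain Il2rg was at 1181 ± 134 CPM in RGX-104 and 1123 ± 98.1 CPM in DMSO, and Il2rb, shared by interleukin 2 and interleukin 15, at 395 ± 69.4 and 368 ± 74.5 CPM. Il4ra, the chain that recruits STAT6, was at 461 ± 24.9 and 543 ± 90.9 CPM. Il7r, through which interleukin 7 acts, stood at 296, 294, 294 and 352 CPM in RGX-104 and at 451, 354, 388 and 371 CPM in DMSO. Its groups did not overlap, though the highest RGX-104 library and the lowest DMSO library were 352 and 354 CPM. Its log2 fold change was -0.34 ± 0.13 (unadjusted p = 0.0213 in the edgeR fit, adjusted p = 1.00). Il27ra was at 171 ± 19.2 CPM in RGX-104 and 128 ± 27.4 CPM in DMSO (unadjusted p = 0.0434 in the edgeR fit, adjusted p = 1.00). Il6st, which encodes gp130, was at 38.8 ± 19.6 and 55.0 ± 10.7 CPM (unadjusted p = 0.195 in the edgeR fit). Of 13 ligands 12 had no count in any library, and Osm, itself a STAT5 target, was at 40.6 ± 10.4 and 35.5 ± 15.3 CPM. Since the T cell genes Cd2 and Cd28 were at 0 too, a ligand at 0 is not shown to be absent.

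Among the 4 JAK kinases, Jak1 was at 552 ± 62.6 CPM in RGX-104 and 636 ± 78.3 CPM in DMSO. Jak2 was at 29.2, 29.9, 33.8 and 51.7 CPM in RGX-104 and at 53.2, 101, 64.3 and 58.3 CPM in DMSO. All RGX-104 libraries lay below all DMSO libraries, and the log2 fold change of Jak2 was -0.93 ± 0.33 (unadjusted p = 0.0108 in the edgeR fit, adjusted p = 1.00). With the genes detected as a covariate it was -0.82 (unadjusted p = 0.0785 in the edgeR fit). Leaving out each library in turn gave -1.16 to -0.70, with an unadjusted p of 0.00485 to 0.0572 in the edgeR fits, the highest without DMSO replicate 2. Tyk2 was at 83.3 ± 19.9 and 72.3 ± 13.4 CPM, and Jak3 at 16.4 ± 9.66 and 6.07 ± 9.99 CPM. Stat4 was at 82.3 ± 18.5 CPM in RGX-104 and 90.8 ± 60.0 CPM in DMSO, and Stat2 at 53.8 ± 20.6 and 47.0 ± 14.7 CPM, neither at an unadjusted p under 0.05 in the edgeR fit.

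The 17 other negative regulators, which include phosphatases, PIAS proteins, ubiquitin ligases and the remaining SOCS genes, and the third PIM kinase Pim3 listed with them, were all tested. None had an unadjusted p under 0.05, and their median log2 fold change was -0.036. The phosphatase genes Ptprc, Ptpn1 and Ptpn6 were at 1051 ± 67.1, 379 ± 53.9 and 143 ± 24.8 CPM in RGX-104 and at 1169 ± 219, 388 ± 51.3 and 116 ± 35.3 CPM in DMSO. Cbl, a ubiquitin ligase gene, was at 305 to 351 CPM in RGX-104 and 297 to 321 CPM in DMSO.

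Of 20 other genes that STAT factors can induce, 17 were tested. Their log2 fold changes had a median of 0.24, against 0.0090 for all tested genes. Of the 17, 14 were positive and 3 negative, whereas 50.9% of all tested genes lay above 0. None of the 17 was called. At an unadjusted p under 0.05 there were 5 higher (29.4%) and 0 lower, against 1.98% and 1.82% of all tested genes. For 3 of the 17 (17.6%), Bcl6, Ccnd2 and Mcl1, every RGX-104 value exceeded every DMSO value, against 2.08% of all tested genes. The list was drawn up with earlier results of these data known, so these shares describe the list and are no test of STAT targets. Of the 17 genes 10 had a mean of 50 CPM or more, whereas 6487 of the 10037 tested genes lay below 50 CPM, where the spread is wider. Many of these genes answer other signals as well, and the counts say nothing particular of STAT factors.

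Bcl6, which encodes a transcriptional repressor that favours memory and follicular fates, stood at 133, 107, 120 and 120 CPM in RGX-104 and at 41.2, 92.0, 69.7 and 56.8 CPM in DMSO. Its log2 fold change was 0.88 ± 0.25 (95% interval 0.36 to 1.41, unadjusted p = 0.00226 in the edgeR fit, adjusted p = 0.872), and DESeq2 gave 0.87 with an adjusted p of 0.0699. With the genes detected as a covariate it was 1.10, and against DMSO replicate 4 alone it was 1.08. That library lay below the DMSO mean of 64.9 CPM for Bcl6, so a higher value against it alone was all but fixed in advance. Ccnd2, which encodes a cyclin of G1 phase, stood at 2018, 1779, 1887 and 1783 CPM in RGX-104 and at 1399, 1642, 1517 and 1669 CPM in DMSO, with a log2 fold change of 0.26 ± 0.09 (unadjusted p = 0.00934 in the edgeR fit, adjusted p = 1.00). Mcl1, a survival factor of the BCL2 family, was at 790 ± 26.8 CPM in RGX-104 and 667 ± 71.6 CPM in DMSO. The other genes at an unadjusted p under 0.05 were Bcl3, a coactivator of NF-κB, and Junb, an AP-1 subunit. Bcl3 was at 85.3, 59.2, 91.3 and 56.0 CPM in RGX-104 and at 43.2, 35.6, 10.4 and 58.3 CPM in DMSO. Its log2 fold change of 0.99 was 0.33 against DMSO replicate 4 alone, the highest DMSO library for Bcl3. Junb was at 315 ± 39.1 CPM in RGX-104 and 248 ± 27.4 CPM in DMSO. Bcl2, the survival gene most tied to interleukin 7 and STAT5, was at 1420 ± 57.9 and 1506 ± 131 CPM, with a log2 fold change of -0.084 ± 0.093 (edgeR adjusted p = 1.00).

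**Figure D5:**
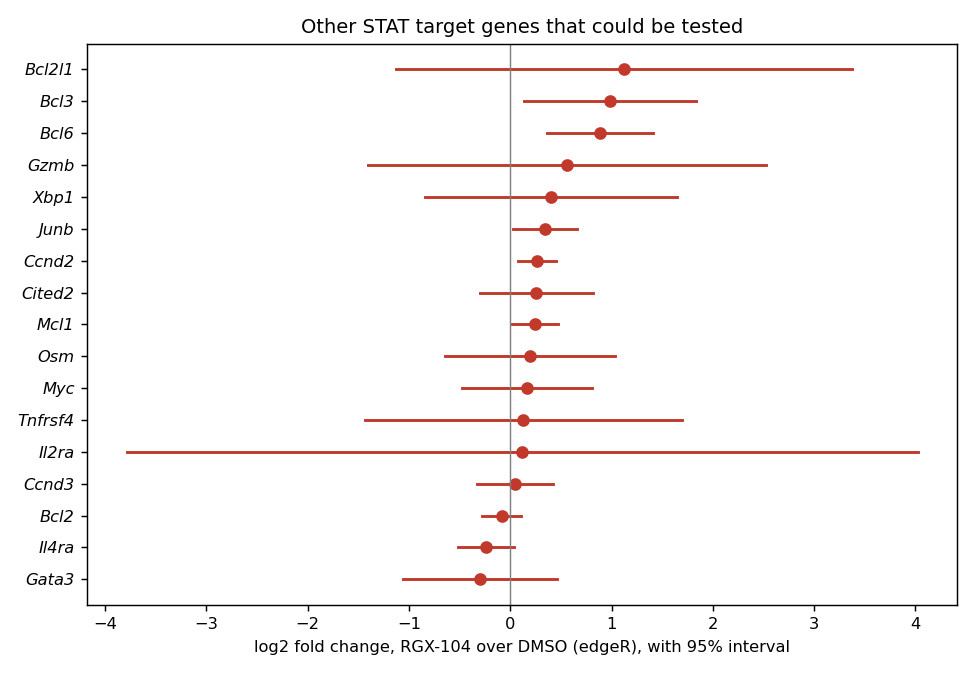
Log2 fold change of RGX-104 over DMSO (points) with its 95% interval (lines) from the edgeR fit, for the 17 other STAT target genes that could be tested. The intervals of Bcl3, Bcl6, Junb, Ccnd2 and Mcl1 lie above 0 before adjustment, Bcl6 at 0.36 to 1.41, and none of the 17 passed over all genes tested.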

How the data were processed

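The authors deposited a table of counts, whole reads for each gene symbol and library, with no scaling applied, judged by its values. Libraries were made with a QuantSeq 3' kit, per the labels' protocols. Per the submitters' processing notes the tools were STAR 2.7.8a, DESeq2 1.4 and R 4.1.0 and the build GRCm38. How reads were assigned to genes and strands, and with which annotation, is not given in the sources used here. Groups came from the treatment labels. Library numbers are unique across groups, so no pairing was fitted.

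Tests used the quasi-likelihood method of edgeR 4.0.16 in R 4.3.3, with TMM normalization, group as the only term, filterByExpr with a minimum count of 10 and Benjamini-Hochberg adjustment over 10037 genes, called under 0.05. CPM were computed on TMM-scaled totals. Standard errors were derived from each log2 fold change and its F statistic, and 95% intervals use the fit's degrees of freedom. Alternatives were DESeq2 size factors, no filter, DESeq2 1.42.0, limma-voom (limma 3.58.1), genes detected as a covariate, DMSO replicate 4 alone, and leaving out each library. Replicate 4 had the most genes detected of the DMSO libraries, and no fit used another DMSO library alone. The fits were also run on simulated data with planted changes far larger than those of the 10 genes, so that run does not bear on changes of their size. Correlations used log2(CPM + 1) and exact two-sided permutations. Of the 41730 symbols 39351 (94.3%) matched the RefSeq gene table. Named beyond the 10 genes are the up to 4 highest tested genes of each list, and Bcl6, Bcl3, Junb, Il27ra and Il6st, chosen after their values were seen. A few list genes are counted but not reported here by name. The members and lists were chosen with earlier results of these data known.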

Additional observations from a re-analysis of the deposited data

Results flagged for a closer look

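A library far from the other 3 of its group was found in 5 of the 66 groups examined, where chance gives about 1 in 20. Socs3 stood at 414 CPM in RGX-104 replicate 8, against 248 to 276 CPM in the other RGX-104 libraries. Il7r stood at 352 CPM in the same library, against 294 to 296 CPM. Mcl1 stood at 830.0 CPM in RGX-104 replicate 5, against 772 to 780 CPM. In DMSO replicate 2 Jak3 reached 20.9 CPM, whereas the remaining DMSO libraries had 0 to 3.40 CPM. In DMSO replicate 1 Stat4 reached 180 CPM, whereas the remaining DMSO libraries had 48.6 to 70.1 CPM.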

How the results depend on the processing

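Under all 14 alternatives 0 of the 10 genes and 0 of the 52 other pathway genes tested were called. Over all genes, 10 higher and 1 lower were called, 27 and 19 by DESeq2, 6 higher with genes detected as a covariate, 4 lower without a filter and 3 lower by limma-voom. Leaving out a library gave 7 to 11 higher and 1 to 3 lower, 3 without DMSO replicate 4. The cause of these shifts was not tested. The median log2 fold change of all genes tested was 0.0090, and 0.13 against DMSO replicate 4 alone. Signs changed for Stat5a, to -0.011 with DESeq2 size factors, -0.010 with DESeq2, -0.014 with the covariate and -0.075 against DMSO replicate 4 alone, where Stat5b was at -0.15, Cish at -0.45 and Pim1 at 0.019. For Stat5b and Cish replicate 4 was the highest DMSO library, so a lower value against it alone was all but fixed in advance. With the covariate Cish was at -0.32 and Pim1 at 0.0053. Leaving out a library gave -0.17 to 0.16 for Stat5a (below 0 without DMSO replicate 2 or RGX-104 replicate 5 or 6), -0.18 to 0.069 for Stat6 (above 0 without DMSO replicate 2 or 4 or RGX-104 replicate 5) and -0.25 to 0.21 for Socs2 (above 0 without DMSO replicate 1, 3 or 4 or RGX-104 replicate 6). Stat3, Socs1, Socs3 and Pim2 kept their sign in all 14. Without DMSO replicates 1 and 2, r with genes detected was -0.447 for Stat5a, -0.155 for Socs1 and 0.366 for Pim2. No paired analysis was possible because library numbers are unique across groups. Depth limits Cish and Socs2 most, at 1.48 to 15.0 estimated molecules per library.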
